A study of Mus musculus with 2 samples.

Results

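The genes described here are 36 genes that are richly expressed in the kidney's proximal tubule: 35 encode metabolic enzymes, brush border peptidases or a small protein of metabolic tissue (Ttc36), and the last is Kap, the kidney androgen-regulated protein. They were chosen by name, and each was matched to the array through the RefSeq accession of its probes. All 36 had a probe, out of 22907 genes that could be named on the array. RNA came from kidney Tregs, T cells that hold immune responses in check, sorted as CD45+CD3e+CD4+FoxP3-hCD2+ cells. The reporter puts human CD2 on cells that express Foxp3. The mice had been given anti-GBM antibodies, which bind the basement membrane of the glomerulus and set off cGN, and the cells were taken on day 28. One single-colour array was made for mice given antibody lot I and 1 for lot M, with no untreated array. The labels do not give strain, age, sex or how many mice stand behind an array. They say that disease severity varied with the lot.

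The sources assign the 2 arrays to the lots in opposite ways, so the arrays are called by number. The scanner output records array 1 for lot I and array 2 for lot M, whereas the values of array 1 stand in the lot M column of the deposited value table and those of array 2 in the lot I column. Each difference below is array 2 minus array 1 in log2 units. Going by the scanner output this is lot M minus lot I, and going by the value table it has the opposite sense. With 1 array per lot no difference has a replicate check or a test. The error given after a difference is the scanner's error for single spots, which holds no variation between mice or lots. Of 56605 probes, 54.0% were well above background on each array, and 13740 named genes had such a probe on both. All 8 genes of a Treg list and 9 of 10 T cell genes (Trac had no named probe) were well above background on both arrays.

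The proximal tubule takes back most of what the glomerulus filters and is one of the body's chief sites of glucose synthesis and amino acid breakdown. Its apical membrane, the brush border, carries peptidases that cut filtered peptides into amino acids and dipeptides, which are then taken up and burned or rebuilt inside the cell. Its mitochondria and peroxisomes oxidise glycine derivatives, D-amino acids and hydroxy acids, and its cytosol and endoplasmic reticulum join acyl groups to amino acids for excretion. The transcription factor HNF4A is a known activator of many of these genes.

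Promoter sequence was read for the members because most of them differed between the arrays in the same direction. RefSeq windows of 300 bases (GRCm38.p6, 250 before and 50 after a gene's start) were found for 33 of the 36 members. Mep1b, Cndp2 and Ttc36 had none. The TATA box sequence TATAAA, searched on both strands, was found in at least 1 window of 9 members (27.3%), against 15.7% of all 27025 genes and 13.6% of all 32851 windows. In Ddc, Agxt2, Ggt1 and Hgd it lay on the other strand only, 68 or more bases before the start. The HNF4-type sequence CAAAGTCCA, also on both strands, was found in 4 members (12.1%), against 0.555% of all genes and 0.475% of all windows. The short core CAAAG, which lies inside CAAAGTCCA, was in 22 members (66.7%) against 57.4% of all genes. These matches describe letters and do not show binding.

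In 5 members the TATA box lay on the gene's own strand and began 28 to 40 bases before the start. They are shown because they span the roles: glucose release (G6pc), inositol breakdown (Miox), acyl activation (Acsm2), deacylation (Acy3) and Kap, whose 250 upstream bases are given whole as the textbook transcript of this cell type. Capitals mark the TATA box, and each name is followed by the coordinates of the stretch and the gene's strand.
G6pc chr11:101367662-101367715 (+): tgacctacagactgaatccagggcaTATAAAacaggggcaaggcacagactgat
Miox chr15:89334408-89334463 (+): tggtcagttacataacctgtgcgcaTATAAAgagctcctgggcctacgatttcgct
Acsm2 chr7:119554287-119554339 (+): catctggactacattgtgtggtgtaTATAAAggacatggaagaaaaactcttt
Acy3 chr19:3986515-3986569 (+): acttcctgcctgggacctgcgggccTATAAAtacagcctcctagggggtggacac
Kap chr6:133853668-133853917 (-): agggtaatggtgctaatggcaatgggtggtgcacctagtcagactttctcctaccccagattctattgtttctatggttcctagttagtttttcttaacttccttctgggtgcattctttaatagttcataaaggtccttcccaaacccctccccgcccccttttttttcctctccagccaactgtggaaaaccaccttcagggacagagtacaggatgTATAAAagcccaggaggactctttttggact

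The HNF4-type match lay upstream of the start in Agxt2 and Aadat, both aminotransferase genes. In Pipox and Nat8 the match lay after the start and is not shown. Capitals mark the match, which reads TGGACTTTG on the other strand.
Agxt2 chr15:10358487-10358545 (+): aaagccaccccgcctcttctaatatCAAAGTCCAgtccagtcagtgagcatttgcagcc
Aadat chr8:60506027-60506085 (+): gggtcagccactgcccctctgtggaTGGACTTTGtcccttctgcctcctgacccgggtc

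Transcripts of 34 of the 36 members were well above background on both arrays of sorted Tregs, against 60.0% of all named genes. The exceptions, on both arrays, were Hpd and Mep1b. All 34 measured members had a positive difference, where 53.8% of the 13740 measured genes did. The count was 33 of 34 under scaling by spike-in controls, and also with the brightest probe per gene. The members' median was 0.87 (1.83-fold higher on array 2), and the median of all measured genes was 0.01. A difference of 2-fold or more was reached by 7 of the 34 (20.6%), against 1.34% of all measured genes, and one of 1.5-fold or more by 26 (76.5%), against 5.15%. No member was 2-fold or more higher on array 1, where 0.0873% of all genes were. Under normexp background correction with an offset of 50, which draws dim signals together, 3 members passed 2-fold (Fbp1, Mep1a and Miox), while Hgd stood at 0.80, Agxt2 at 0.65, Hao2 at 0.62 and Dmgdh at 0.39. The list was drawn up with results of these arrays known, so its direction is not independent evidence. In bulk RNA, fewer cells of a type and less RNA per cell cannot be told apart, and which cells in the sorted material held these transcripts was not tested.

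**Figure D1:**
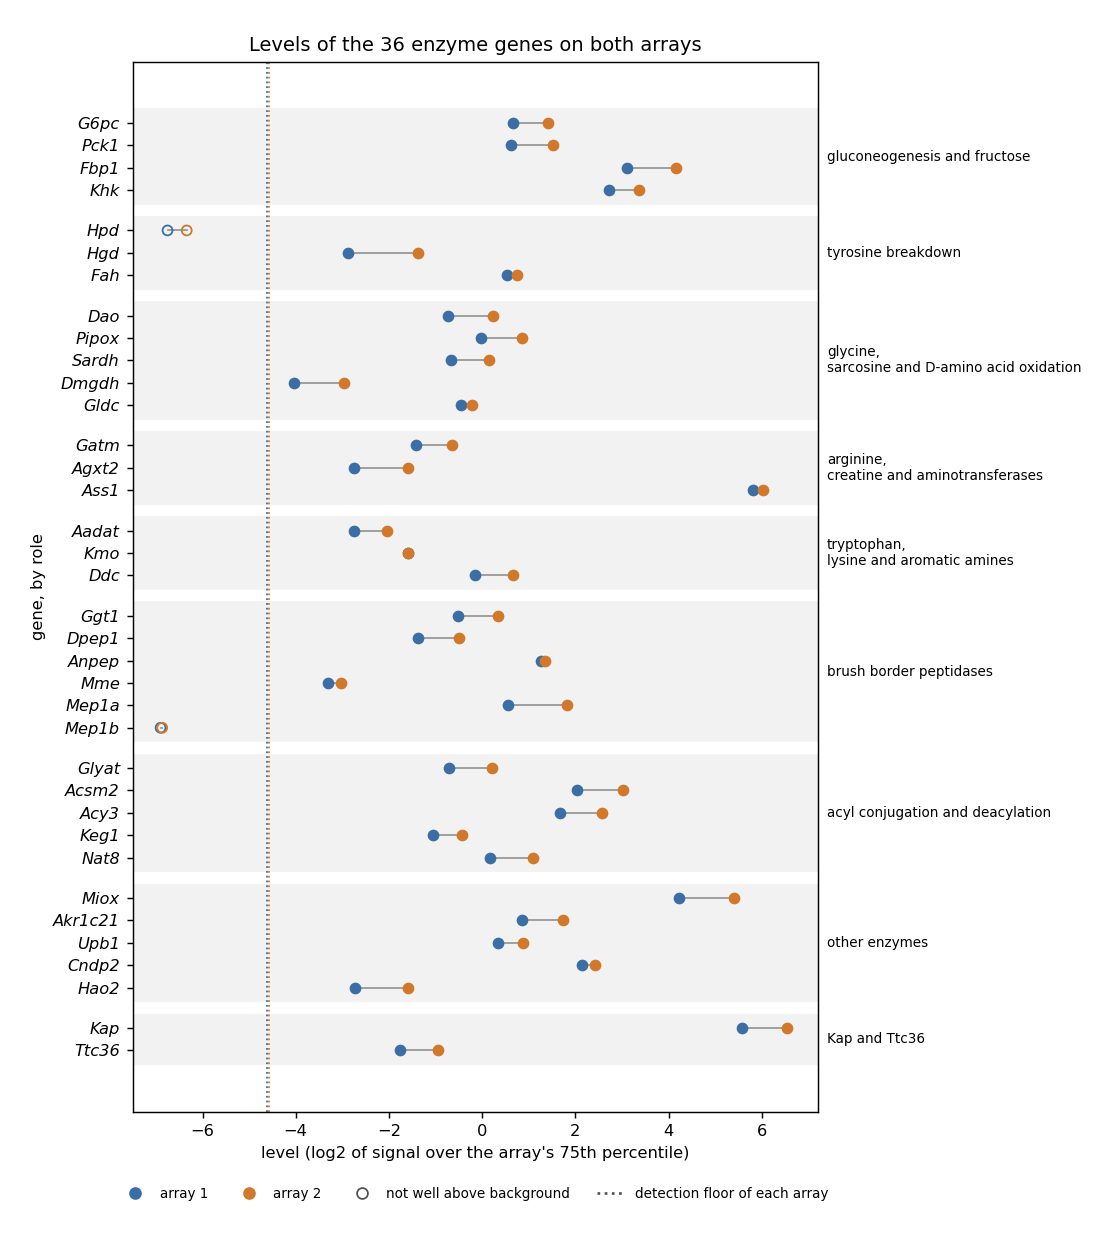
Levels of the 36 genes on array 1 and array 2, by role; the x axis is the level (log2 signal minus log2 of the 75th percentile of the array), lines join the arrays, open points were not well above background and dotted lines mark each array's detection floor (-4.62 and -4.58). In all 34 measured genes the point of array 2 lies to the right of array 1, and Hpd and Mep1b lie left of the floors.

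Enzymes of glucose synthesis and fructose use were all higher on array 2, with a median difference of 0.82 over 4 of 4 members. A level is the log2 ratio of a signal to the 75th percentile of its array, which was a signal of 285.6 on array 1 and 279.5 on array 2. G6pc, the phosphatase that releases free glucose, had levels of 0.67 and 1.41 on the arrays in this order, a difference of 0.74 ± 0.20. Pck1, the cytosolic enzyme that commits oxaloacetate to glucose synthesis, had levels of 0.62 and 1.52 (0.91 ± 0.20). Fbp1, the fructose bisphosphatase between them in the pathway, had signals of 2461 and 4998, a difference of 1.05 ± 0.20 and the only one of the group past 2-fold, although it stood at 0.997, just under that limit, when the arrays were scaled by spike-in controls. Khk, the kinase that starts fructose breakdown, had levels of 2.71 and 3.37 and the smallest difference of the 4, 0.66 ± 0.20. The 4 differences lay within about 2 spot errors of each other, and G6pc is the one of the 4 with a TATA box in its window.

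The tyrosine pathway was split. Hgd, homogentisate dioxygenase, had the largest difference of all 34 measured members, 1.503 ± 0.23 (2.83-fold), from levels of -2.87 and -1.37, which are 3.35 and 9.25 times the detection floor of their array. Fah, the last enzyme of the same pathway, had levels of 0.53 and 0.75, a difference of 0.23 ± 0.20. Hpd, the dioxygenase that supplies Hgd with its substrate, had 1 probe at -6.75 and -6.34, below both floors, and has no fold. Gstz1, the isomerase that acts between Hgd and Fah and is not a member, differed by 0.33 ± 0.14.

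Transcripts for the oxidation of glycine derivatives and D-amino acids were over 2 spot errors higher on array 2 in 4 of 5 members, where 7.91% of all measured genes were, and the median of the 5 was 0.88. Dao, the peroxisomal D-amino acid oxidase, was read by 2 probes whose differences were 0.95 and 0.97. Pipox, which oxidises sarcosine and pipecolic acid, had levels of -0.02 and 0.86 (0.88 ± 0.20). Sardh and Dmgdh are mitochondrial enzymes that take methyl groups from sarcosine and dimethylglycine. Sardh differed by 0.80 ± 0.21. Dmgdh differed by 1.07 ± 0.32 and had the widest error of the members, with signals of 17.4 and 35.8, of which the first is 1.49 times the floor. Gldc, the decarboxylating subunit of the glycine cleavage system, stood apart from these 4 with levels of -0.46 and -0.21 and a difference of 0.25 ± 0.21.

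Of the enzymes of arginine and creatine and the aminotransferases, Gatm makes the creatine precursor guanidinoacetate and had 2 probes with differences of 0.82 and 0.71. Agxt2, a mitochondrial aminotransferase for glyoxylate and methylated arginines, had levels of -2.74 and -1.58, a difference of 1.16 ± 0.22. A second Agxt2 probe was at background on both arrays. Ass1 joins citrulline to aspartate on the way to arginine. Its signals were 16148 and 18103, and its difference of 0.20 ± 0.20 was no larger than its spot error.

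The tryptophan, lysine and aromatic amine enzymes showed the same split. Aadat, the aminotransferase for kynurenine and aminoadipate, differed by 0.72 ± 0.23. Ddc, which makes dopamine in the tubule, had levels of -0.16 and 0.66 (0.82 ± 0.20) from 1 of its 2 probes, the other lying below both floors. Kmo, the kynurenine hydroxylase, had levels of -1.60 and -1.58 and a difference of 0.01 ± 0.16, with 2 probes of opposite sign (-0.16 and 0.19). Its sign turned to -0.04 when the arrays were scaled by spike-in controls and to -0.02 with no scaling, so Kmo has no direction.

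Brush border peptidases were measured in 5 of 6 cases, with a median of 0.87. Mep1a, the alpha subunit of the metalloprotease meprin, had the second largest difference of the members, 1.25 ± 0.20 (2.38-fold), with signals of 422.6 and 983.6. Mep1b, the beta subunit, had 1 probe at -6.90 and -6.86, below both floors, so the subunits could not be compared. Ggt1, which opens the breakdown of glutathione at the cell surface, differed by 0.88 ± 0.21, and Dpep1, the dipeptidase that continues it, by 0.87 ± 0.21. Those consecutive enzymes differed from one another by less than their spot errors. Anpep, aminopeptidase N or CD13, which is also found on myeloid cells, had levels of 1.27 and 1.35 and differed by 0.07 ± 0.20. Mme, the peptidase neprilysin or CD10, had levels of -3.32 and -3.04 and differed by 0.28 ± 0.21. Its probes disagreed, at -0.05 and 0.61, and the brighter of them turned its sign.

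The 5 members of acyl conjugation and deacylation had differences between 0.63 and 0.998, with a median of 0.91. Acsm2, a medium-chain acyl-CoA synthetase, had 2 probes with differences of 0.99 and 1.01, and its mean of 0.998 lay just under the 2-fold limit. Glyat, which joins the activated acids to glycine, differed by 0.91 ± 0.21. Keg1, of the same family as Glyat, had the smallest difference here, 0.63 ± 0.21. Acy3 removes acetyl groups from mercapturates, whereas Nat8 adds them, and these opposing enzymes had differences of 0.88 ± 0.20 and 0.91 ± 0.20. Nat8 has close paralogs, so its source is uncertain.

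Miox, the inositol oxygenase that is a hallmark of the proximal tubule, had signals of 5358 and 11791, a difference of 1.17 ± 0.20 (2.25-fold). Hao2, a peroxisomal hydroxy acid oxidase, had levels of -2.74 and -1.59 and a difference of 1.15 ± 0.22. Akr1c21, a hydroxysteroid dehydrogenase with close paralogs, differed by 0.89 ± 0.20, and Upb1, the last enzyme of pyrimidine breakdown, by 0.55 ± 0.20. Cndp2, a cytosolic dipeptidase found in many tissues, had levels of 2.14 and 2.41, a difference of 0.27 ± 0.20. Miox and Hao2 thus passed the 2-fold limit while Cndp2 stayed within 2 spot errors of 0.

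Kap had signals of 13593 and 25944 on the arrays, or levels of 5.57 and 6.54. The difference was 0.96 ± 0.20 (1.95-fold), although the sort was for T cells. Ttc36, whose product is known to act on tyrosine metabolism, had levels of -1.76 and -0.95, a difference of 0.82 ± 0.21. The pair lay on either side of the members' median.

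**Figure D2:**
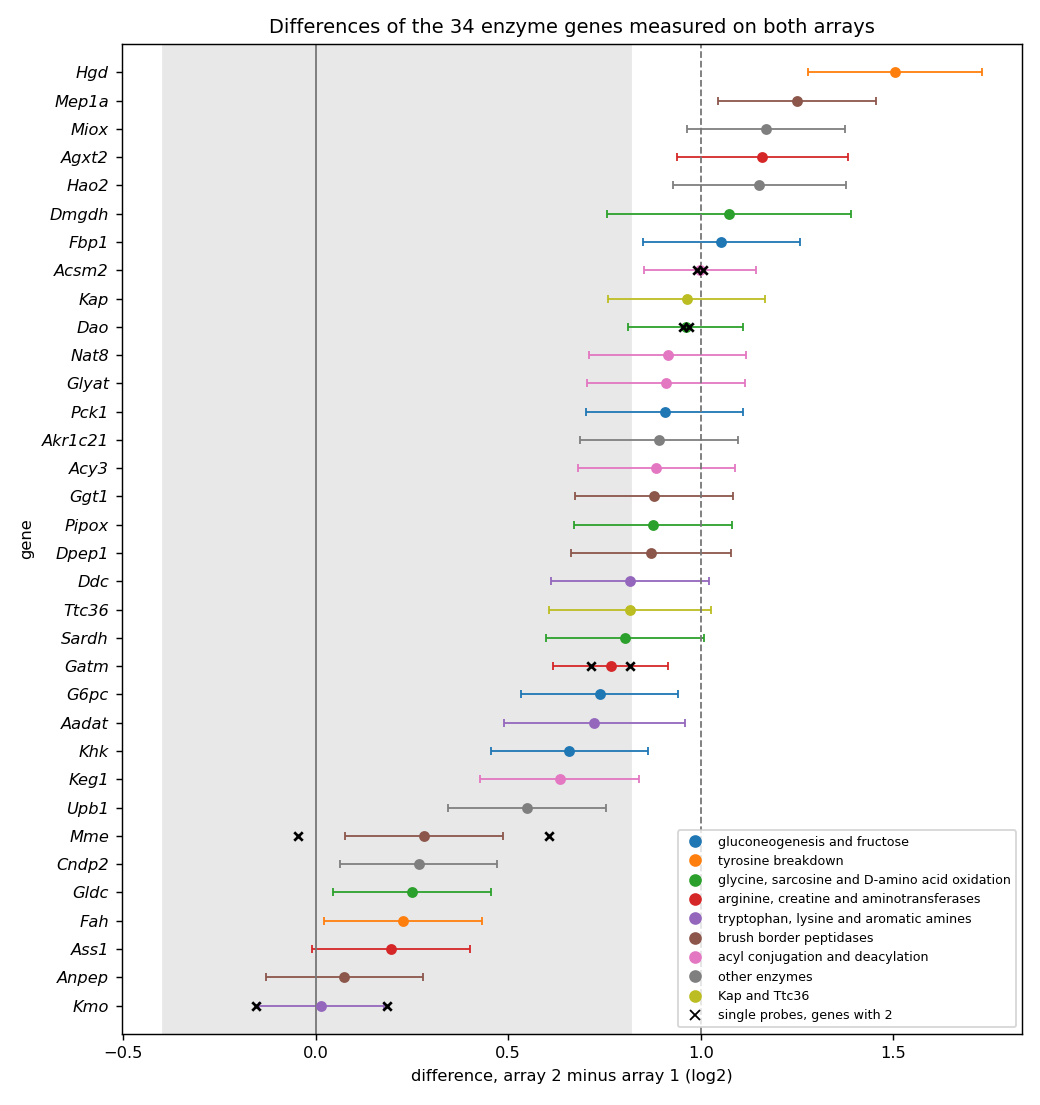
Differences (array 2 minus array 1, log2) of the 34 measured genes, coloured by role, with the scanner's spot error as bars and crosses for single probes where a gene had 2; grey marks the central 95% of all measured genes (-0.40 to 0.82), the dashed line 2-fold. Hgd is highest at 1.503, and 7 genes lie at 0.28 or below, with the next at 0.55.

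Between 0.28 and 0.55 no member had a difference. Below this gap lay 7 genes: Kmo, Anpep, Ass1, Fah, Gldc, Cndp2 and Mme, with a median of 0.23. The 27 above it ran from 0.55 (Upb1) to 1.503 (Hgd), with a median of 0.89 (1.86-fold), and 19 of them lay between 0.8 and 1.2. Their SD across genes was 0.21, against 0.36 for all 34 measured members. Leaving out the 7 smallest lowers the SD by construction. These 27 were also the members with a difference over 2 spot errors. For most members 2 spot errors fall inside the gap, so this match adds no support to the split. The split was seen in the values and carries no test, and the gap depends on the background correction and the filter. Under normexp, Aadat (0.30), Dmgdh (0.39), Upb1 (0.45), Ttc36 (0.52) and Gatm (0.53) lay in it, and with no filter on dim probes Ddc (0.44) did. The 7 genes come from 6 of the role groups. None comes from glucose synthesis and fructose use, from acyl conjugation and deacylation, or from the pair Kap and Ttc36. Whether role bears on the split was not tested.

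The size of the difference did not follow the level. Across the 34 members Spearman's rho between mean level and difference was 0.004, where all points share the same 2 arrays. The 18 members whose mean level exceeded the 75th percentile had a median of 0.88, and the 16 others 0.84. Differences of 2-fold or more were reached by 3 of the 18, where 0.449% of all genes above the percentile reached one, and by 4 of the 16, where 2.50% of the genes below it did. The 5 genes with 2 measured probes gave close pairs in Dao, Acsm2 and Gatm and divergent ones in Kmo and Mme.

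**Figure D3:**
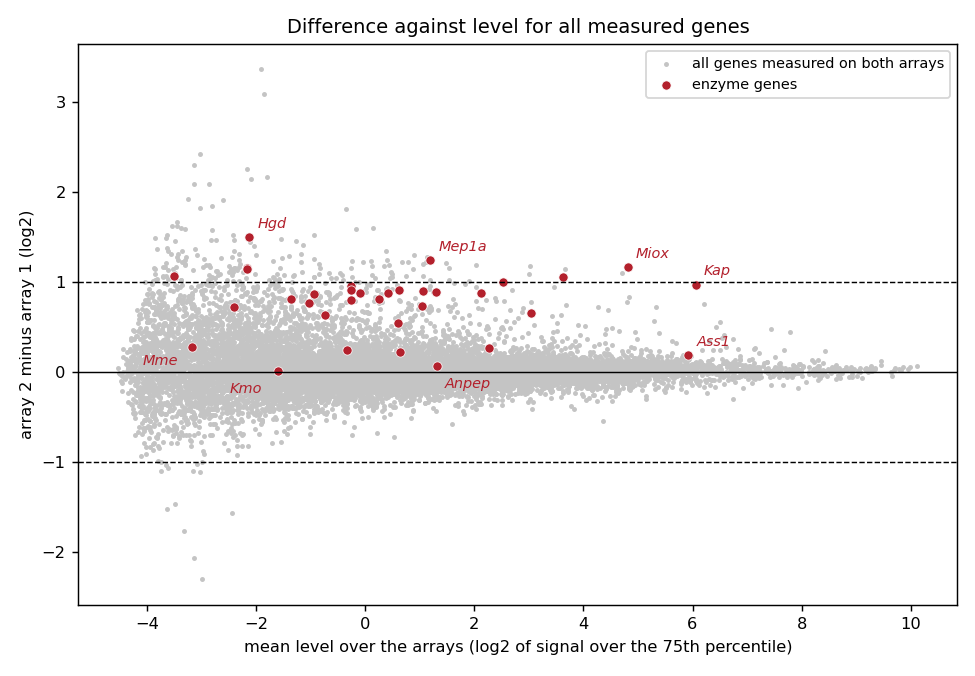
Difference (array 2 minus array 1, log2) against mean level (log2 of signal over the 75th percentile) for the 13740 genes measured on both arrays (grey) and the 34 enzyme genes (red), with lines at 0 and at 2-fold. The red points lie above 0 at every level, from Dmgdh near the floor to Kap at 6.54 on array 2, and the grey cloud narrows toward high levels.

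Other lists of the nephron and of other cells were read on the same scale. Proximal tubule transporters and endocytic receptors were measured in 18 of 18 cases, with a median of 1.12 and 17 higher on array 2. Of these 18, 13 (72.2%) were 2-fold or more higher, against 20.6% of the enzymes and 1.34% of all measured genes. Aqp1, a water channel also found in endothelium and red cells, was the exception at -0.15. In the list of distal nephron and collecting duct, 13 of 14 were measured with a median of 0.59. Of the 13, 12 were higher on array 2, and 3 (23.1%) by 2-fold or more. Nothing here tests whether the enzymes differ from either list, since each lot has 1 array. Macrophage and monocyte genes, measured in 10 of 10 cases, had a median of 0.33 with 9 higher on array 2, and their summed signal, scaled by the 75th percentile, was 1.24 times that of array 1. Their part in the enzymes' differences was not tested. Fibroblast and mesangial genes had a median of 0.26 over 4 of 7.

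Genes of T cells had a median of -0.01 over 9, with differences from -0.10 to 0.11, and Treg genes 0.02 over 8, whose sign turns under scaling by spike-in controls, which lowers every difference by 0.06. With signals scaled by the 75th percentile, their sums on array 2 were 0.999 and 0.987 times those on array 1, against 1.66 times for the enzymes. Ass1 and Kap made up 60.5% of the enzymes' sum on array 1, and without them the ratio was 1.88. Endothelial genes had a median of -0.08 over 7 of 8, and podocyte genes 0.04 over 3 of 7, with Nphs1 and Wt1 not well above background. Since many of the enzymes are also known from liver, hepatocyte genes were read. Alb, Apoa1, F2, Ahsg, Cyp8b1 and Fga were at background on both arrays. Apob (0.82), Ttr (0.97), Serpina1a (0.47 ± 0.30) and Fgb (2.09 ± 0.28) were measured and higher on array 2, with a median of 0.90. On array 1, Serpina1a and Fgb were only 1.75 and 1.64 times the detection floor, and Serpina1a stayed within 2 spot errors of 0.

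**Figure D4:**
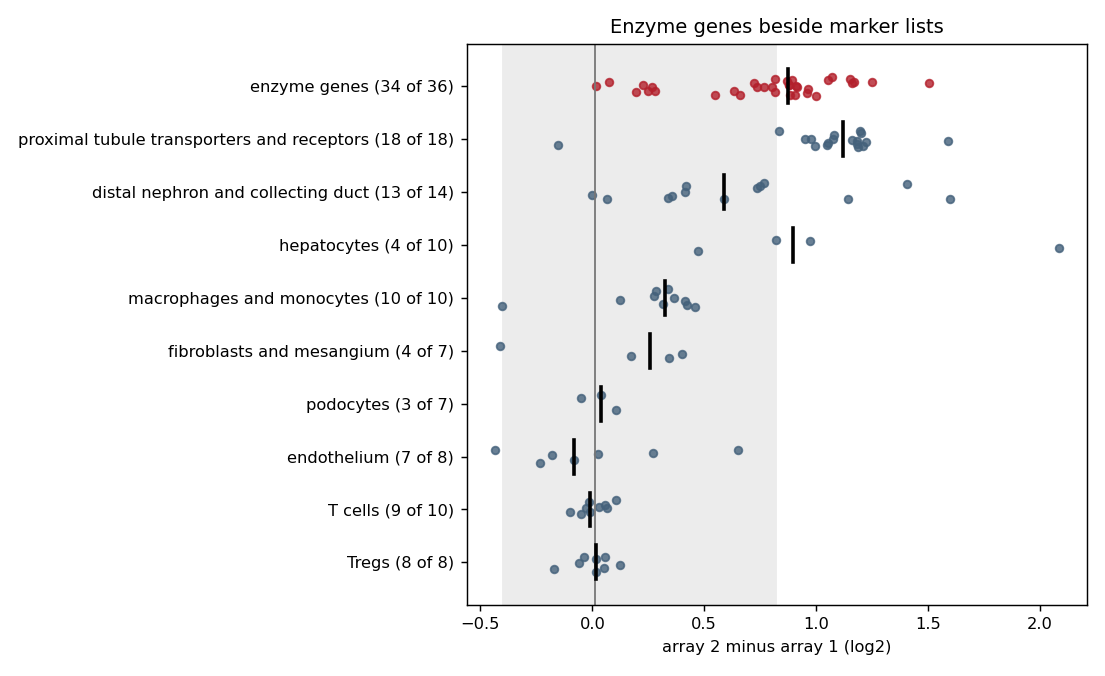
Differences (array 2 minus array 1, log2) of the enzyme genes (red) and of marker lists (blue), 1 point per gene measured on both arrays, black bars at the medians, grey for the central 95% of all measured genes and a line at their median. Medians are 0.87 for the enzymes, 1.12 for proximal tubule transporters, 0.59 for the distal nephron, 0.33 for macrophages and -0.01 for T cells.

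Other genes of the members' own pathways, leaving out scaffold and transcription factor genes, had a median difference of 0.26. Of 99 such genes, 68 were measured on both arrays and 55 of them were higher on array 2, where 53.8% of all measured genes were. A further 4 were well above background on array 2 only and none on array 1 only. In glucose synthesis and fructose use, 9 of 11 were measured (median 0.41). Pcx, pyruvate carboxylase, was 2-fold higher (1.02 ± 0.20), and Slc2a5, the fructose transporter, differed by 0.72. G6pc3, the glucose phosphatase found in most tissues, differed by -0.04, against 0.74 for G6pc.

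In tyrosine and phenylalanine breakdown, 4 of 5 were measured (median 0.56). Pcbd1, which recycles the pterin cofactor of the pathway, differed by 0.79. Among genes of glycine, choline and one-carbon metabolism the median was 0.19 over 8 of 10. Bhmt2, a methyltransferase for homocysteine, differed by 0.86, while Gnmt, the glycine methyltransferase, was at -0.43 and the other measured subunits of glycine cleavage, Gcsh and Dld, at 0.09 and -0.08. Arginine and creatine genes had a median of 0.28 over 6 of 11, and none of the 6 reached 1.5-fold. Another gene of this list, well above background on array 2 only, was at least 1.83-fold higher there. Kynurenine and lysine genes had a median of 0.15 over 9 of 12, with Aass, the first enzyme of lysine breakdown, at 0.96, and Kynu, which cleaves kynurenines, at -0.78.

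Glutathione and dipeptide genes had a median of 0.11 over 9 of 12. Gclc and Gclm, the subunits that start glutathione synthesis in most cells, stood at 0.11 and -0.01. Of 9 other brush border hydrolases, 3 were measured: Treh, the trehalase of the brush border (1.05), Nt5e (0.07) and Dpp4 (-0.08), the last 2 also known as CD73 and CD26 of lymphocytes. Xpnpep2, a further brush border peptidase, was well above background on array 2 only, at least 2.07-fold higher there. The bound is the level on array 2 over the higher of array 1's detection floor and the probe's own level. Medium-chain acyl-CoA synthetase relatives had a median of 0.58 over 3 of 5. The transcription factor gene Hnf4a differed by 0.73, and its relative Hnf4g was not well above background.

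**Figure D5:**
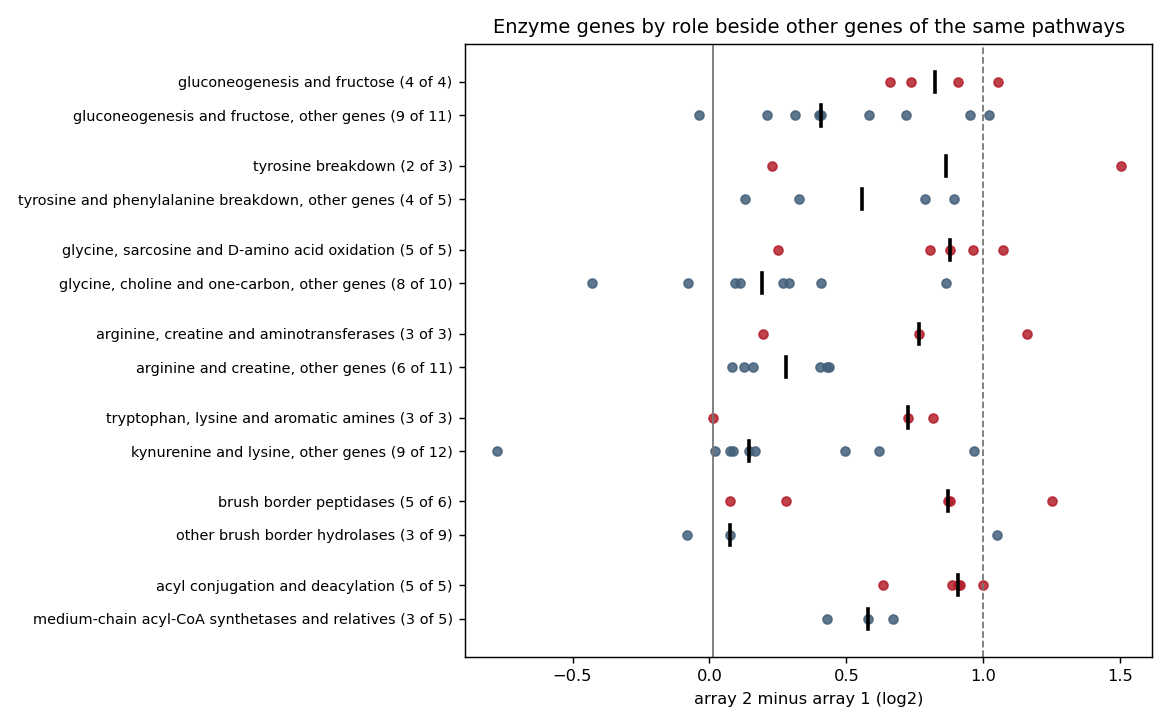
Differences (array 2 minus array 1, log2) of the enzyme genes by role (red) beside other genes of the same pathways (blue), 1 point per gene measured on both arrays, with black bars at the medians, a solid line at the median of all measured genes and a dashed line at 2-fold. In glucose synthesis and fructose use the medians are 0.82 and 0.41, in glycine metabolism 0.88 and 0.19, and in the brush border 0.87 and 0.07.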

How the data were processed

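Total RNA was labelled with Cy3 and hybridised to 1 array per antibody lot. Agilent Feature Extraction 10.7.1.1 read the spots, per the submitters' processing notes and the file headers. The deposited processed signal intensity was corrected for background and detrended within each array, not scaled between arrays, and other deposited columns hold raw intensity and flags of 0 or 1. The deposited value table holds a linear ratio with column medians of 0.070 and 0.069, made in a way not given in the sources used here. Where the signal was 300 or more, it equalled the signal of the array recorded under the other lot divided by a constant (SD of the log2 quotient 0.000189 over 13919 and 13802 probes, against 0.156 and 0.181 for the same lot).

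Intensities were log2-transformed and each array's 75th percentile over non-control probes subtracted. Of 62976 spots, 3671 control spots and 75 (array 1) and 56 (array 2) outlier spots were left out, and 0 were saturated. Of 56605 probes, 32989 (58.3%) were named through RefSeq accessions (assembly GRCm38.p6, used for names and promoter sequences only, since the array headers name another build). A gene's value averages those of its probes that were well above background on array 1 and on array 2. Spot errors come from the scanner's error model. A bound uses the lowest signal among probes well above background. Members and lists were chosen with earlier results of these data known. All members are named. From each other list, genes with the largest differences (up to 3) or of 2-fold or more could be named, but not every such gene is. Only Aqp1 is named from the transporters and receptors, and no gene from the distal nephron list. Further genes (G6pc3, Gcsh, Dld, Gclc, Gclm, Nt5e, Dpp4, Impa1, Ezr, Slc9a3r1 and the undetected genes) were named after their values were seen. Several genes and 1 promoter motif are not reported here. Functions were tested on simulated data. Python 3.11.15 was used, and limma 3.58.1 for normexp. The number of arrays limits the precision.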

Additional observations from a re-analysis of the deposited data

How the results depend on the processing

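No paired analysis was possible because each lot has 1 array, and leaving out a replicate gives no value. Naming by the array's own gene names was not run, as the columns used here hold accessions only. The count of 7 members at 2-fold became 3 with normexp, 3 of 28 with a stricter filter on dim probes, 3 of 18 above the 75th percentile (chosen after seeing the data), 26 at a 1.5-fold limit and 0 at a 4-fold limit. The members' median of 0.87 became 0.65 with normexp. The value table, with columns by their labels, turned it to -0.87, with 0 members higher and 0 at 2-fold for lot M and 7 at 2-fold for lot I. By role, normexp gave medians of 0.51 (tyrosine), 0.65 (glycine), 0.53 (arginine), 0.30 (tryptophan), 0.59 (brush border) and 0.62 (other enzymes). With no filter on dim probes, which adds Hpd, Mep1b and the dim probes, the medians were 0.41 (tyrosine), 0.44 (tryptophan) and 0.58 (brush border). The cause of the normexp values was not tested. Single members moved by more than their spot error in 9 of 34 cases with normexp, 2 with the brightest probe, 1 with no filter, and 0 with spike-in, quantile or lowess scaling or with outlier spots kept. Over all genes, the 184 and 12 genes at 2-fold on arrays 2 and 1 became 28 and 0 with normexp, 84 and 1 with the stricter filter, 648 and 399 with none, and 440 and 229 with another detection flag. Spike-in scaling lowers every difference by 0.06. Members at levels near the floor, such as Dmgdh and Mme, are limited by signal over background.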

Other observations

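Further lists next to the enzymes gave the following values, with no test. Among genes that build the brush border, 7 of 8 were measured on both arrays and had a median of 0.50. Vil1, the actin bundler villin of microvilli, differed by 1.12 and Cdhr5, a protocadherin that links microvillus tips, by 1.04, both 2-fold or more higher on array 2. Pdzk1, a scaffold for apical transporters, differed by 0.66. Ezr and Slc9a3r1, which encode a membrane linker and its partner found in many cells including lymphocytes, stood at -0.04 and -0.02.

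In peroxisomes, Ddo, the oxidase for acidic D-amino acids, differed by 0.97, next to 0.96 for Dao, and the oxidase gene Acox2 by 0.83. Hao1 and Agxt, known mainly from liver, were at background on both arrays, while Hao2 was measured. The genes around Miox in inositol and glucuronate metabolism had a median of 0.07 over 6 of 6. Of these, 4 were higher on array 2 and 1 reached 1.5-fold. Xylb, the xylulokinase, differed by 0.79 and Dcxr, a reductase, by 0.30, whereas Impa1, a phosphatase present in most cells, was at -0.04. Pyrimidine breakdown genes had a median of 0.49 over 4 of 5, with Abat at 0.78 and Upp1 at 0.74. Of the family of Akr1c21, Akr1c12 and Akr1c13 were measured, at -0.04 and -0.02, against 0.89 for Akr1c21.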
